A study of Rattus norvegicus with 9 samples.

Results

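Transcription factors that pattern the embryonic forebrain were measured in the adult amygdala of rats with and without estradiol. The set holds 39 genes, chosen by name, and 38 of them had at least 1 probe under that name on the array, of 18641 named genes in all. These 38 genes were read by 54 probes. Dlx6 had none under its symbol, and a probe whose description names it was well above background on 2 of 9 arrays, 1 in each group. Every rat was a female of the spontaneously hypertensive strain (SHR) whose ovaries were removed at 4 weeks of age. From 1 week later a minipump under the skin delivered either polyethylene glycol alone (group OV, 4 rats) or estradiol in the same vehicle at 2 µg per day (group OV+E2, 5 rats) for 1 month, and the amygdala of both sides was dissected at 9 weeks of age. Both groups therefore lack ovaries, and neither an intact female nor a normotensive strain was part of the comparison. RNA of 1 rat was put on each 1-colour array, so replicates are separate rats.

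The forebrain is divided in the embryo by transcription factors whose domains meet at sharp borders. Dlx, Lhx6, Lhx8 and Nkx2-1 mark the subpallium, which gives rise to GABAergic and cholinergic neurons and to the central and medial amygdala. Emx, Tbr1 and Neurod factors mark the pallium, the source of the glutamatergic neurons of the cortex and basolateral amygdala, and Otp, Sim1, Lhx1, Lhx5 and Tbx3 take part in forming the hypothalamus and neighbouring diencephalon. Many of these genes stay on in the adult neurons of their domain, so that their RNA also reflects which tissue was dissected. In bulk RNA, fewer cells of a type and less RNA per cell cannot be told apart.

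The probes on which the largest differences and the disagreements between probes rest are shown here as the array's own 60-base oligos, 5′ to 3′, with coordinates in rat build rn4 as given in the scanner files. The files used here do not say which part of the transcript each oligo covers.
Tbx3, brighter probe, chr12:38155887-38155946, minus strand: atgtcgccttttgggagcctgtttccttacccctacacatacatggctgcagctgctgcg
Tbx3, dimmer probe, chr12:38153877-38153936, minus strand: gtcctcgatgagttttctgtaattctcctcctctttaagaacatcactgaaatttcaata
Lhx5, chr12:37323877-37323936, minus strand: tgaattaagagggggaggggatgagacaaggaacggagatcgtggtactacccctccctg
Emx2, chr1:266011069-266011128, plus strand: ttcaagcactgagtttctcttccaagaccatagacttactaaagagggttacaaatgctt
Foxp2, dimmer probe, chr4:40947976-40948035, plus strand: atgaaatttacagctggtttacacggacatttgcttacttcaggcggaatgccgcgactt
Emx1, 1 oligo carried under 2 probe names, chr4:119436663-119436722, plus strand: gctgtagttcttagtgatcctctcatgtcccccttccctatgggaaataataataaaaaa
The Tbx3 oligos lie 2010 bases apart and share no position, whereas the Emx1 probes are the same 60 bases printed as separate features.

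Levels are log2 of the processed signal minus the 75th percentile of the array, so that a level of 0 lies well above the typical probe, and differences are OV+E2 minus OV. Of the 54 probes 49, from 37 genes, could be tested, since at least 4 of 9 arrays read them well above background, and 40 were so on all 9. Otp, needed for neurons of the paraventricular nucleus, was not well above background in any rat. The array of OV replicate 3 stood apart from the other 8: its 75th percentile was 129.7, against 556.8 to 737.6, 24230 probes were well above background on it, against 29055 to 31398, and its mean correlation with the other arrays was 0.947, against 0.980 to 0.983. That rat was the highest or the lowest of all 9 in 71.4% of the tested member probes and in 73.6% of all tested probes. Fitted differences of the members are therefore given on 9 arrays and then without it. Of 18 genes that mark amygdala neurons, 16 were tested and none was below background in every rat.

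In limma 0 of 49 member probes reached an adjusted p under 0.05, as did 0 of the 30215 probes tested over the array (0.0%). At an unadjusted p under 0.05 there were 6 member probes (12.2%), against 10.4% of all tested probes. In OV+E2 5 of them were lower (10.2%, against 7.17%) and 1 was higher (2.04%, against 3.21%). In 5 member probes (10.2%, against 6.91%) the rats of the 2 groups did not overlap, with OV+E2 lower in 4 (8.16%, against 4.02%) and higher in 1 (2.04%, against 2.89%). Lhx5 counts among the lower ones although it entered the test only through the OV rats, the group where it was high. Without OV replicate 3 the members at p under 0.05 numbered 9 (18.4%), against 14.1%, and again 0 passed an adjusted p of 0.05, against 1 probe of the whole array (0.00331%). As a set the members thus lay near the background of the array, with a median difference of −0.04 over 37 genes, against +0.03 over all 14709 named genes tested (0.00 and +0.02 without OV replicate 3).

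**Figure D1:**
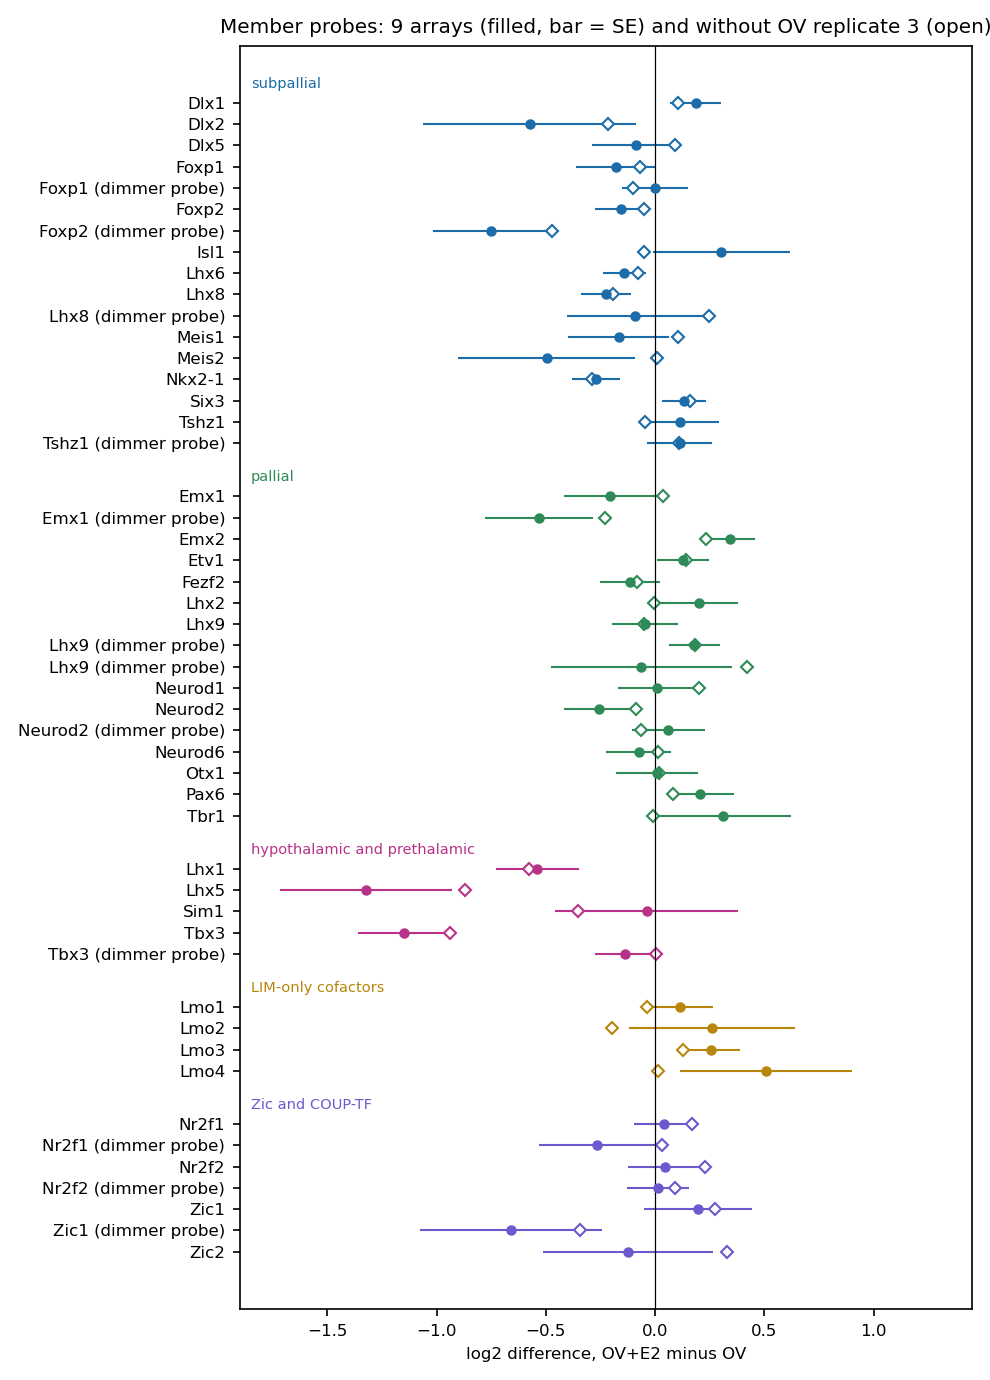
Log2 difference (OV+E2 minus OV, horizontal axis) of the 49 tested probes, grouped by the role of their gene; filled points are the fit on 9 arrays with its standard error and open diamonds the fit without OV replicate 3. On 9 arrays the probes of the hypothalamic and prethalamic genes all lie below 0, Tbx3 and Lhx5 farthest. Of these Lhx5 entered the test only through the OV rats, and Sim1 turned to +0.07 with median scaling and to +0.32 with quantile normalization. Emx2 is the highest filled point of the pallial group.

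The lowest values, those of Lhx5 and Tbx3, lay among the genes that act in the hypothalamus and neighbouring prethalamus. All 4 of these genes that could be tested were lower in OV+E2, though Sim1 turned to +0.32 with quantile normalization and +0.07 with scaling to the array median. The group had a median difference of −0.84 on 9 arrays and −0.72 without OV replicate 3. Lhx5 adds to that count and median although it entered the test only through the OV rats, where it was high. The others stood at −1.15 (Tbx3), −0.54 (Lhx1) and −0.04 (Sim1) on 9 arrays. The medians of the other groups, on 9 arrays and without OV replicate 3, were −0.15 and −0.05 for 13 subpallial genes, +0.01 and +0.02 for 12 pallial genes, +0.26 and −0.01 for 4 LIM-only cofactors and +0.04 and +0.25 for 4 Zic and COUP-TF genes. Scaling to the array median moved the median of all probes by +0.11 and normexp background correction by −0.12, and small differences shift with them.

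Tbx3 encodes a T-box repressor that acts in the developing ventral hypothalamus and in the neurons of the arcuate nucleus. On its brighter probe the OV rats read −0.98, −0.54, 0.23 and −0.33, and the OV+E2 rats −1.57, −1.37, −1.58, −1.67 and −1.57. Every OV+E2 rat lay below every OV rat, and the treated rats were far closer to each other (SD 0.11, n = 5) than the controls (SD 0.50, n = 4). The difference was −1.15 ± 0.21 (SE), 2.22-fold lower, with an adjusted p of 0.251 in limma. It was −0.94 ± 0.14 without OV replicate 3 (adjusted p = 0.121 in limma). On the first slide, with OV replicates 1, 2 and 3 and OV+E2 replicates 1 and 2, it was −1.04. On the second it was −1.28, where OV replicate 5 alone stood against OV+E2 replicates 3, 4 and 5. In the authors' own processed values it was −1.03 ± 0.14 with an adjusted p of 0.0428 in limma, the only member probe to pass there, where 69 of 30000 probes (0.23%) passed. Without the authors' column for OV replicate 3, which correlated at 0.938 with that rat's scanner values, the adjusted p was 0.123 and 0 member probes passed.

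The dimmer Tbx3 probe did not share that difference. It read −2.61, −2.65, −2.01 and −2.45 in the OV rats and −2.69, −2.63, −2.53, −2.47 and −2.51 in the OV+E2 rats. Its groups overlapped, and the difference was −0.14 ± 0.14 on 9 arrays and 0.00 ± 0.08 without OV replicate 3. Taken within each array, where scaling cancels, the brighter probe exceeded the dimmer by 1.63 to 2.24 in the OV rats and by 0.80 to 1.26 in the OV+E2 rats, with no overlap. That gap differed by −1.01 between the groups (two-sided exact permutation test over 126 splits, p = 0.0079, the smallest this design can give). Adjusted over the 12 probe pairs of 11 member genes examined this way, it was 0.095. Testing the gap between probes was chosen after the data were seen. The statement that Tbx3 was lower thus holds for 1 of its 2 oligos.

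**Figure D2:**
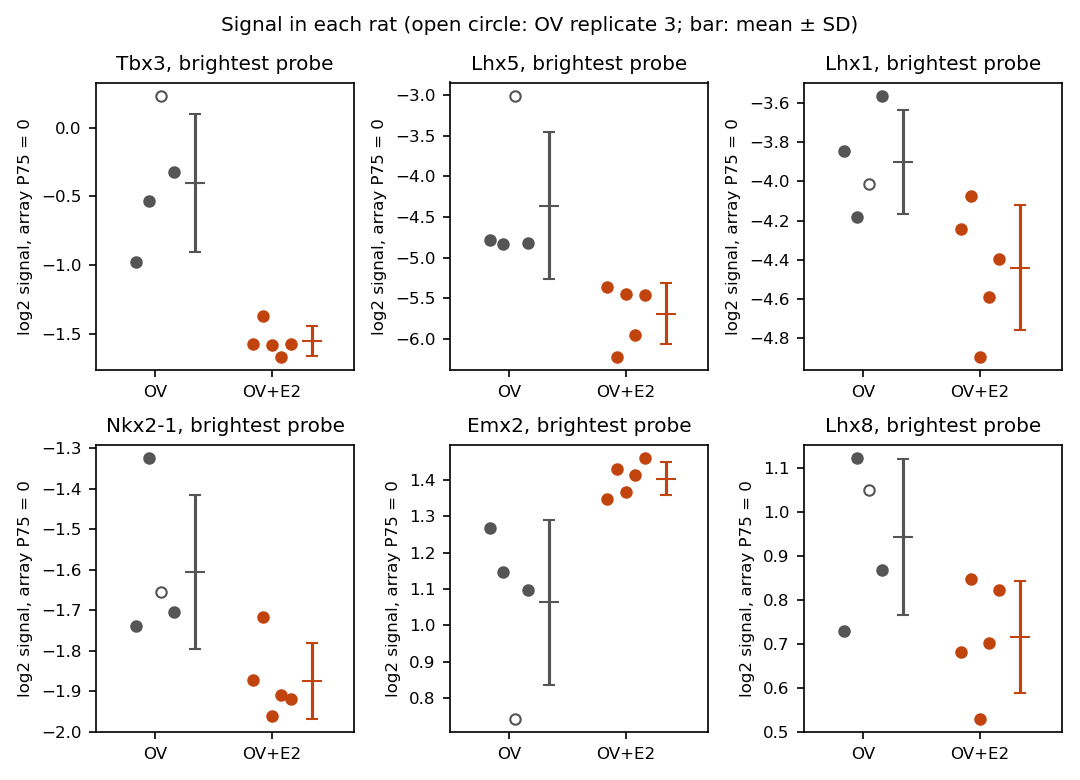
Log2 signal in each rat (0 is the array's 75th percentile) for the brightest probe of 6 members; each point is 1 rat, open circles are OV replicate 3 and bars are the mean ± SD of the group. Tbx3 and Lhx5 are lower and Emx2 higher in every OV+E2 rat than in any OV rat, with the OV+E2 values of Lhx5 not well above background, while Lhx1, Nkx2-1 and Lhx8 overlap.

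Lhx5, a LIM-homeodomain factor of the hypothalamus and of Cajal-Retzius neurons, was dim. The OV rats read −4.79, −4.84, −3.01 and −4.82, and the OV+E2 rats −5.36, −6.22, −5.45, −5.95 and −5.46. The probe was well above background in 4 of 4 OV rats and in 0 of 5 OV+E2 rats, so the treated level could not be read. Each OV+E2 rat was set at the lowest signal of any probe well above background on its array, or at its own reading where higher. Against that level Lhx5 was 2.20-fold lower in OV+E2, or 1.61-fold without OV replicate 3, whose value stood far above the other 3. The level is the lowest over all probes and not the limit of this one, so these folds are not strict lower bounds. The adjusted p in limma was 0.310.

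Lhx1, the close relative of Lhx5 that is needed for the suprachiasmatic nucleus, read −3.85, −4.18, −4.01 and −3.56 in the OV rats and −4.24, −4.08, −4.89, −4.59 and −4.39 in the OV+E2 rats. The groups overlapped through 1 OV+E2 rat at −4.08, and the difference was −0.54 ± 0.19 (adjusted p = 0.376 in limma), or −0.58 ± 0.20 without OV replicate 3. It was uneven between slides, at −0.15 on the first and −1.06 on the second, where OV replicate 5 was the only OV rat. Sim1, a bHLH-PAS factor of the paraventricular and supraoptic nuclei that is also expressed in the amygdala, read −4.78, −3.57, −5.42 and −4.13 in the OV rats and −3.90, −5.44, −4.02, −4.58 and −4.62 in the OV+E2 rats. Its groups overlapped fully, with a difference of −0.04 ± 0.42, or −0.35 ± 0.39 without OV replicate 3, and its second probe was not well above background in any rat.

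Markers of hypothalamic neurons were read in the same rats. Of 12 such genes, all tested, 9 were lower and 3 higher in OV+E2, 3 of the lower ones and 1 of the higher at an unadjusted p under 0.05, with a median difference of −0.12 (−0.04 without OV replicate 3). None of the 12 was at background in every rat. Their summed signal, relative to the array's 75th percentile, was 139.5, 199.9, 192.0 and 163.7 in the OV rats and 139.4, 134.3, 125.3, 153.8 and 137.1 in the OV+E2 rats. That sum is carried largely by Nnat, whose log2 signal of 6.31 to 6.73 was the highest of the 12 in every rat, with a difference of −0.08. Most of the rest comes from Avp and Pmch, so the sum says little about the other markers. OV replicate 1, lowest of its group in the sum, was also lowest in Tbx3, while OV+E2 replicate 4, highest of its group in the sum, was the lowest of all rats in Tbx3. Among single markers Avp, the vasopressin precursor, differed by −1.08 (−0.97 without OV replicate 3), Pomc, the melanocortin precursor of the arcuate nucleus, by −0.49 (−0.34) and Gal, the galanin precursor, by +0.68 (+0.57). Agrp, which marks another arcuate neuron, differed by −0.02 (+0.21). Markers of other cells went both ways. Higher were 11 of 16 tested for amygdala, 6 of 8 for neurons and 6 of 6 for choroid plexus. The choroid plexus sum was 11.6 in OV replicate 2, against 254.2 to 749.2 in the others. Lower were 7 of 8 for oligodendrocytes, 6 of 8 for astrocytes and 4 of 7 for endothelium. At an unadjusted p under 0.05 stood 4 lower genes of 8 for meninges and fibroblasts, 4 of 9 for microglia and 4 of 7 for blood. In these 3 lists 3, 4 and 2 genes were higher, 0 at that p. None of these genes was at background in every rat. The summed signal ranged from 46.8 to 60.2 in OV and 43.1 to 47.0 in OV+E2 for meninges and fibroblasts, from 45.5 to 66.1 and 42.6 to 47.5 for microglia, and from 3.41 to 6.38 and 4.29 to 5.79 for blood. The part of hypothalamic tissue or of these other cells in the Tbx3, Lhx5 and Lhx1 differences was not tested.

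Among the 13 subpallial genes tested 9 were lower and 4 higher (12 and 1 with normexp), and 1, Nkx2-1, stood at an unadjusted p under 0.05 on its brightest probe. Nkx2-1 specifies the medial ganglionic eminence, the preoptic area and much of the hypothalamus. It read −1.74, −1.32, −1.66 and −1.70 in the OV rats and −1.87, −1.72, −1.96, −1.91 and −1.92 in the OV+E2 rats. A single OV+E2 rat, at −1.72, lay above 1 OV rat, at −1.74. The difference was −0.27 ± 0.11 (adjusted p = 0.453 in limma), much the same without OV replicate 3 at −0.29 ± 0.11. Lhx8, which acts downstream of Nkx2-1 in cholinergic neurons, read 0.73, 1.12, 1.05 and 0.87 in the OV rats and 0.68, 0.85, 0.53, 0.70 and 0.82 in the OV+E2 rats. The difference was −0.23 ± 0.11 (−0.19 ± 0.11 without OV replicate 3), and its dimmer probe turned from −0.09 ± 0.31 to +0.25 ± 0.19. Lhx6, which keeps GABAergic interneurons of the same eminence in their fate, read −0.18, −0.15, 0.12 and −0.04 in the OV rats and −0.29, −0.29, −0.07, −0.13 and −0.24 in the OV+E2 rats. Its difference of −0.14 ± 0.10 shrank to −0.08 ± 0.08 without OV replicate 3.

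The Dlx genes, which drive GABAergic differentiation, did not share a direction. Dlx1 read 0.51, 0.51, 0.13 and 0.37 in the OV rats and 0.77, 0.57, 0.53, 0.38 and 0.56 in the OV+E2 rats, a difference of +0.19 ± 0.12, or +0.10 ± 0.09 without OV replicate 3. Its neighbour on chromosome 3, Dlx2, was near background at −4.99, −4.48, −3.21 and −4.47 in the OV rats and −5.07, −6.24, −4.13, −4.68 and −4.20 in the OV+E2 rats, with a difference of −0.57 ± 0.49 that shrank to −0.22 ± 0.46. Their probes lie on opposite strands of rn4. Dlx5 read 0.92, 0.84, 1.52 and 0.63 in the OV rats and 0.48, 0.78, 1.03, 1.05 and 1.09 in the OV+E2 rats, and its difference of −0.09 ± 0.20 turned to +0.09 ± 0.15 without OV replicate 3.

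Isl1, of striatal and cholinergic neurons, read −2.80, −2.72, −4.27 and −3.03 in the OV rats and −3.35, −2.59, −2.91, −2.86 and −2.80 in the OV+E2 rats. The low value of OV replicate 3 set its difference of +0.30 ± 0.31, which was −0.05 ± 0.16 without that rat. Six3, needed for the anterior forebrain and for striatal neurons, read −3.47, −3.49, −3.43 and −3.68 in the OV rats and −3.51, −3.38, −3.39, −3.48 and −3.18 in the OV+E2 rats, a difference of +0.13 ± 0.10, or +0.16 ± 0.09 without that rat. The forkhead factor Foxp1, of striatal projection neurons, read between 3.78 and 4.55 in the 9 rats on its brighter probe and differed by −0.18 ± 0.18 (−0.07 ± 0.18 without that rat). Its dimmer probe gave 0.00 ± 0.15 and −0.10 ± 0.13. The TALE cofactor Meis1 turned from −0.17 ± 0.23 to +0.10 ± 0.10 without OV replicate 3. Tshz1, a zinc-finger factor, turned from +0.11 ± 0.18 to −0.05 ± 0.13 on its brighter probe and gave +0.11 on its dimmer probe both ways.

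Foxp2, the forkhead factor of striatal, thalamic and deep cortical neurons, again had probes that differed. The dimmer one was lower in every OV+E2 rat, at −4.14, −3.59, −4.13, −3.52 and −3.90, against −3.49, −3.29, −2.27 and −3.36 in the OV rats. Its difference was −0.75 ± 0.26 (adjusted p = 0.378 in limma) and −0.47 ± 0.16 without OV replicate 3. The brighter probe, 32959 bases away, gave −0.15 ± 0.12 and −0.05 ± 0.07. The gap between the 2 probes changed by 0.60 (exact permutation p = 0.024, adjusted p = 0.119 over 12 pairs), in the test chosen after the data were seen. That test gave the same adjusted p for Zic1 (exact permutation p = 0.032) and for Emx1 (exact permutation p = 0.040), whose 2 probes are the same oligo. The Foxp2 value therefore does not show that its oligos read different transcripts.

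The 12 pallial genes were divided, 7 higher and 5 lower, or 4 and 8 with normexp and 9 and 3 with median scaling. Emx2, a homeobox gene of the cortical hem, hippocampus and caudal cortex, was the only member higher in every OV+E2 rat on its probe. It read 1.27, 1.15, 0.74 and 1.10 in the OV rats and 1.35, 1.43, 1.37, 1.41 and 1.46 in the OV+E2 rats, and the difference was +0.34 ± 0.11 (adjusted p = 0.364 in limma). Without OV replicate 3 it was +0.23 ± 0.06. On the first slide it was +0.34 and on the second, where OV replicate 5 was the only OV rat, +0.32. Of the 12 markers of cortex and hippocampus 7 were higher and 5 lower, none at an unadjusted p under 0.05, and their median difference was +0.06. Their summed signal ranged from 70.2 to 99.9 in the OV rats and from 74.4 to 84.0 in the OV+E2 rats, and none was at background in every rat.

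Emx1, the partner of Emx2 in the pallium, gives a measure of how far a repeated oligo can differ on these arrays. Under 1 probe name the OV rats read 0.51, 0.44, 1.65 and 0.38 and the OV+E2 rats 0.30, 0.21, 0.28, 0.11 and 0.18, which did not overlap. Under the other name, with the same 60 bases, the OV rats read 0.43, 0.35, 1.30 and 0.21 and the OV+E2 rats 0.17, 0.27, 0.53, 0.45 and 0.43, which did. The differences were −0.53 ± 0.25 and −0.21 ± 0.21, and without OV replicate 3 they were −0.23 ± 0.07 and +0.04 ± 0.10. Between the features the difference thus moved by 0.33. Over the 85 sequences printed under 2 probe names on this array, the median of that movement was 0.053, 15.3% moved by as much as Emx1 and 1.18% by as much as the Tbx3 probes, whose sequences differ.

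**Figure D3:**
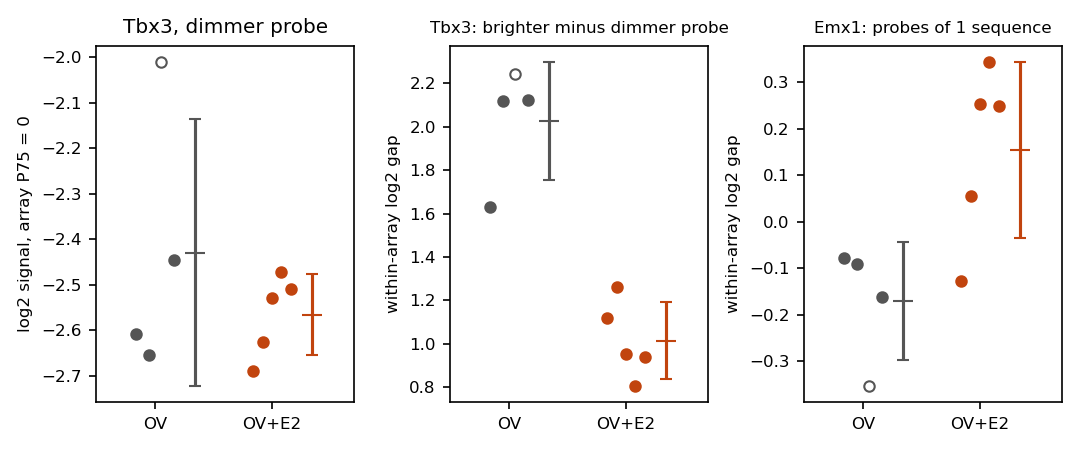
Log2 signal of the dimmer Tbx3 probe (left) and the within-array log2 gap between the Tbx3 probes (middle) and between the Emx1 probes of identical sequence (right); each point is 1 rat, open circles are OV replicate 3 and bars are mean ± SD. The dimmer Tbx3 probe overlaps between groups, the Tbx3 gap is 1.63 to 2.24 in OV and 0.80 to 1.26 in OV+E2, and the Emx1 gap differs by 0.33 although the oligos are the same.

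The proneural bHLH factors of pallial neurons differed little. Neurod2 read 1.91, 1.67, 2.40 and 1.59 in the OV rats and 1.58, 1.53, 1.73, 1.65 and 1.70 in the OV+E2 rats, a difference of −0.25 ± 0.16 that was −0.09 ± 0.09 without OV replicate 3. Neurod6 read 0.95, 0.52, 1.04 and 0.59 in the OV rats and 0.57, 0.85, 0.92, 0.47 and 0.68 in the OV+E2 rats, a difference of −0.07 ± 0.15, or +0.01 ± 0.14 without that rat. Pax6, of pallial progenitors and of some amygdala neurons, read −2.05, −2.46, −2.79 and −2.33 in the OV rats and −1.98, −2.27, −2.33, −2.31 and −2.11 in the OV+E2 rats, with a difference of +0.21 ± 0.15, or +0.08 ± 0.12 without that rat. Lhx9, a marker of pallial amygdala and thalamus, had 5 probes, of which 3 were tested with differences of −0.05, +0.18 and −0.06, which were −0.05, +0.18 and +0.42 without OV replicate 3. The other 2 were well above background in 1 OV rat each and in no OV+E2 rat. The remaining pallial genes, Tbr1, Fezf2, Otx1, Lhx2, Etv1 and Neurod1, lay between −0.12 and +0.31 on 9 arrays and between −0.08 and +0.20 without OV replicate 3.

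The LIM-only cofactors, which bind LIM-domain partners without binding DNA themselves, were all higher on 9 arrays, except that Lmo2 was at −0.14 with normexp, and only 2 of the 4 were higher without OV replicate 3. Lmo3, enriched in amygdala and cortex, read 1.86, 1.73, 1.26 and 1.72 in the OV rats and 1.79, 1.75, 2.02, 2.02 and 1.91 in the OV+E2 rats, and its difference of +0.25 ± 0.14 became +0.13 ± 0.09. Lmo4 read 1.22, 1.06, −0.82 and 1.17 in the OV rats and 1.18, 1.14, 0.92, 1.33 and 1.26 in the OV+E2 rats. Its difference of +0.51 ± 0.39 was +0.02 ± 0.10 without OV replicate 3, and Lmo1 and Lmo2 turned from +0.11 and +0.26 to −0.04 and −0.20. The TALE cofactor Meis2 showed the opposite, with OV replicate 3 at 2.74 and the other 8 rats between 0.56 and 0.91, and its difference moved from −0.50 ± 0.40 to +0.01 ± 0.10. In all, 18 of 49 member probes (36.7%) changed sign when this rat was left out, against 24.4% of all tested probes.

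Zic1, a zinc-finger factor of dorsal midline, septum and medial thalamus, was highest on its brighter probe in the rats with the most signal from thalamus markers. That probe read 0.46, 0.64, 0.86 and 0.55 in the OV rats and 0.93, 1.68, 0.41, 0.54 and 0.58 in the OV+E2 rats. The highest rats were OV+E2 replicates 1 and 2. The same 2 rats were highest in the summed signal of 10 thalamus markers, at 26.8 and 37.7, against 18.6 to 21.0 in the other 7. In Prkcd, a protein kinase C gene of thalamic relay neurons and of the central amygdala, they read 2.42 and 3.59, against 0.83 to 1.13 in the others. Prkcd is 1 of the 10 markers summed, so its reading is not separate from the sum. Prkcd and Slc17a6 are also among the amygdala markers used here. The difference of the brighter Zic1 probe was +0.20 ± 0.25, or +0.27 ± 0.27 without OV replicate 3. None of the 10 thalamus markers was at background in every rat, 7 of the 9 tested were higher in OV+E2, and their median difference was +0.31. On the dimmer Zic1 probe only 1 of OV+E2 replicates 1 and 2 was high. There OV replicate 3 was highest at −2.05 and OV+E2 replicate 2 next at −2.66, while OV+E2 replicate 1 was second lowest at −3.94. The difference of that probe was −0.66 ± 0.42, or −0.35 ± 0.39 without OV replicate 3. The COUP-TF nuclear receptors Nr2f1 and Nr2f2 gave +0.04 ± 0.13 and +0.05 ± 0.17 on their brightest probes, and +0.17 ± 0.08 and +0.23 ± 0.09 without OV replicate 3. Zic2 gave −0.12 ± 0.39 on 9 arrays and +0.33 ± 0.19 without OV replicate 3.

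On its brighter probe Foxp1 was lowest in the rats with the least signal from markers of striatum and pallidum. The 3 rats with the lowest summed signal of these 10 markers were OV+E2 replicate 1 at 61.5, OV replicate 5 at 78.3 and OV+E2 replicate 5 at 94.3, and they also had the 3 lowest Foxp1 levels, at 3.78, 3.78 and 3.85. The highest rat in both was OV replicate 3, at 134.6 and 4.55, but on the dimmer Foxp1 probe that rat was second lowest at 1.05. The striatal sum ranged from 78.3 to 134.6 in the OV rats and from 61.5 to 114.4 in the OV+E2 rats, and 8 of the 10 markers were lower and 2 higher in OV+E2, none at an unadjusted p under 0.05. These gene and marker combinations were chosen after their values were seen, and the part of dissected tissue in any of them was not tested.

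**Figure D4:**
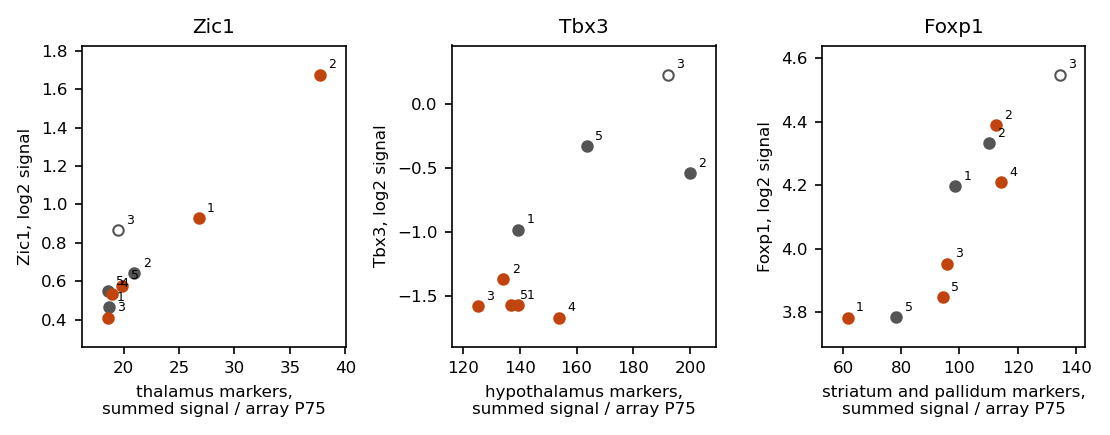
Log2 signal of Zic1, Tbx3 and Foxp1 (brightest probe, vertical axes) against the summed signal of thalamus, hypothalamus and striatum and pallidum markers (relative to the array's 75th percentile, horizontal axes); each point is 1 rat with its replicate number, grey OV, orange OV+E2, open OV replicate 3. Zic1 is highest in the 2 rats with the highest thalamus sums, the OV+E2 rats are low in Tbx3 over sums from 125.3 to 153.8, and Foxp1 is lowest in the 3 rats with the lowest striatal sums. The hypothalamus sum is carried largely by Nnat, then Avp and Pmch. The thalamus sum includes Prkcd and Slc17a6, which are also among the amygdala markers.

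Pairs of members that share a region or a locus were also compared across the 9 rats, and of 8 pairs listed 5 could be computed. Neurod2 and Neurod6 gave Pearson's r = 0.671 (permutation p = 0.017, adjusted p = 0.084) and Spearman's rho = 0.617 (permutation p = 0.086). Without the 2 rats farthest from the median of Neurod2 r was 0.078, so the relation rests on those rats. Dlx1 and Dlx2 gave r = −0.629 (permutation p = 0.071, adjusted p = 0.177) and rho = −0.533 (permutation p = 0.148), and r = −0.278 without the 2 farthest rats. Sim1 with Avp, Isl1 with Six3 and Lhx6 with Nkx2-1 gave r between −0.097 and 0.179. None of the 5 pairs passed an adjusted p of 0.05 on the values as scaled here, while with normexp Isl1 with Six3 (r = 0.934, permutation p = 0.00028, adjusted p = 0.0014) and Dlx1 with Dlx2 (r = −0.818, permutation p = 0.020, adjusted p = 0.049) did.

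A further 60 patterning factors outside the set, 48 of them tested, gave the frame for these values. There 25 were higher and 23 lower in OV+E2, with a median of +0.01 (31 and 17, +0.04, without OV replicate 3), and at an unadjusted p under 0.05 stood 2 of the higher and 4 of the lower. The lower ones included relatives of the hypothalamic members, the LIM-homeodomain genes Lhx3 (−0.45, and −0.33 without OV replicate 3), Lmx1a (−1.27 and −0.83) and Lmx1b (−0.85 and −0.57). Lhx4, another LIM-homeodomain gene and counted among the higher ones, was well above background on 4 of 9 arrays. By limma no factor of this list reached an adjusted p under 0.05. Of these 9 genes were not well above background in any rat, among them Gsx2, Six6 and Fezf1.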

How the data were processed

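Gene expression was measured on Agilent 1-colour Cy3 rat arrays, 4 OV and 5 OV+E2. The deposited scanner files give each spot's processed signal, an intensity after background subtraction by the authors' scanner software (Feature Extraction 9.1 per the submitters' processing notes, 10.7.3.1 per the file headers). Control and outlier spots were left out, spots of a probe were averaged to 45598 probes, and log2 values were centred on the array's 75th percentile. The 30215 probes that at least 4 of 9 arrays read well above background were tested with limma 3.58.1 in R 4.3.3, on group alone. Benjamini-Hochberg adjustment ran over all of them, with calls at 0.05. For a gene with several probes the brightest on average represented it in counts and medians. Members, lists and role groups were chosen with earlier results of these data known. Values in every rat are given for the 12 member genes of smallest p on their brightest probe and for the paired members.

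Accessions of 44 member probes were found in RefSeq, 0 with another symbol. Alternatives changed the background correction (normexp, offset 50), scaling, filter, slide or replicate block, array weights, the arrays included, and used the authors' value table, whose scaling no source used here states. Its column for OV replicate 3 correlated at 0.938 with that rat's scanner values, the others at 1.0. Slide equals scan time. Replicate numbers were not read as pairing the rats, since the labels do not say whether they do. The number of arrays limits the precision. Some single genes of the marker and factor lists are not reported here.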

Additional observations from a re-analysis of the deposited data

Results flagged for a closer look

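In groups of 4 or 5 rats, 1 value lay far from the rest in 7 of 74 groups examined, where chance gives about 1 in 20. Of these 6 were OV replicate 3. Its Lhx5 level was −3.01, against −4.84 to −4.79 in the other OV rats. Foxp2 read −1.23 there, against −1.69 to −1.62, and Meis1 −0.58, against −1.76 to −1.59. Meis2 read 2.74, against 0.56 to 0.91, and Neurod1 0.35, against −0.46 to −0.37. Lmo4 read −0.82 there, against 1.06 to 1.22. The remaining one was Lmo2 in OV+E2 replicate 4, at −2.31, against −1.91 to −1.78 in the other treated rats.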

How the results depend on the processing

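The number of probes called over the whole array, 0 here, was 9 with no filter on dim probes, 69 with the authors' processed values, 3506 with array weights, and 1 without OV replicate 3 with either the authors' values or a slide block. With the authors' values 1 of 49 member probes was called, against 69 of 30000 over the array. With array weights 6 of 49 were called, against 3506 of 30215. Member probes at an unadjusted p under 0.05, 6 here, numbered 3 with the replicate number as a block, 13 with the authors' values, 15 with array weights and 11 with a slide block and no OV replicate 3. Those whose groups do not overlap, 5 here, numbered 3 with normexp, 2 with median scaling and 8 without OV+E2 replicates 1 and 2. By gene the authors' values put 6 higher and 5 lower of 37 members at an unadjusted p under 0.05 in limma, against 1510 and 1219 of 14647 named genes. Otherwise the shares of all probes in these settings are not given, so these counts are no result about the members. The member median, −0.04 here, was −0.13 with normexp, +0.068 with median scaling, +0.032 with the replicate block, +0.015 with the authors' values, +0.043 with array weights and +0.0099 with a slide block and no OV replicate 3. With normexp 2 pairs of members, Isl1 with Six3 and Dlx1 with Dlx2, were correlated at an adjusted p under 0.05.

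Leaving out 1 rat at a time gave 0 to 1 probes called, 0 member probes called, 5 to 9 member probes at an unadjusted p under 0.05, 5 to 9 that do not overlap, 0 to 1 correlated pairs and a member median from −0.070 to +0.032. The shares of all probes are not given for these ranges either. Of 24 member probes whose difference exceeded its SE, 7 changed sign in some of the 21 settings. With normexp Six3 was −0.23, Pax6 −0.088, Tbr1 −0.32 and Lhx9 −0.16 on 1 dimmer probe. Without OV replicate 3, Meis2 was +0.0094 with the authors' values and +0.025 with a slide block, and −0.72 to +0.0092 with 1 rat left out. Tbr1 was −0.14 with the authors' values, −0.12 with array weights, −0.011 with the authors' values and no OV replicate 3, −0.092 with a slide block and no OV replicate 3, and −0.011 to +0.49 with 1 rat left out. Lhx2 was −0.0046 with the authors' values and no OV replicate 3 and −0.0048 to +0.31 with 1 rat left out. The dimmer Nr2f1 probe was +0.018 with the authors' values, +0.19 with array weights, +0.033 and +0.0091 without OV replicate 3 with the authors' values or a slide block, and −0.47 to +0.033 with 1 rat left out. The cause of these changes was not tested.

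Deviations of rats with the same number correlated at 0.170, −0.0761, −0.0110 and 0.105 in the scanner values and at 0.126, −0.00214, 0.130 and 0.173 in the authors' values. Not every pair exceeded 0.1 in either, so the replicate block is not read as pairing. OV replicate 3 was kept as labelled. Settings without OV replicate 3 combined with another change, and without OV+E2 replicates 1 and 2, were chosen after the data were seen. So was the test of the gap between probes of a gene. Lhx5, Dlx2, Sim1 and Otp lay near background, where signal limits what can be read.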
